A study of Mus musculus with 6 samples.

Results

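Malat1, Neat1 and the small nucleolar RNA (snoRNA) host genes Gas5, Snhg1, Snhg3, Snhg5, Snhg8, Snhg12 and Snhg15 make long noncoding RNAs. Their 9 rows were taken by gene symbol from the 54532 genes of the deposited tables, and 8 of them were among the 15138 genes that passed the filter on low counts. The RNA came from the spleens of wild type C57BL/6J mice, from cells labelled CD4+ T cells. The treated mice received Akkermansia muciniphila, a gut bacterium that degrades mucin, every day (3 libraries). The controls received phosphate-buffered saline (PBS) instead (3 libraries). All 6 libraries came from animals whose colitis had been induced with dextran sulfate sodium (DSS), a sulfated polysaccharide given in the drinking water, so no group without colitis was compared. No source used here gives the age or sex of the mice, the method of cell isolation or whether animals were pooled. The question of the design is how the bacterium changes the transcriptome of these cells during colitis.

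Malat1 is a nuclear transcript that gathers in nuclear speckles, the bodies that store splicing factors. Neat1, its neighbour in the genome, is the RNA scaffold of another nuclear body, the paraspeckle. The mature 3′ end of Malat1 and of the long Neat1 isoform is made by RNase P cleavage and closed by an RNA triple helix in place of a poly(A) tail, whereas the short Neat1 isoform is polyadenylated. The snoRNA host genes work in another way: their introns carry snoRNAs, which guide the chemical modification and cleavage of ribosomal RNA, and the spliced exons that remain are polyadenylated and, for several hosts including Gas5, degraded by nonsense-mediated decay when they are translated. Many hosts start, like the mRNAs of the translation machinery, with a 5′ terminal oligopyrimidine tract, a short run of C and T at the first transcribed base that ties their handling to growth signals.

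With Akkermansia, Malat1, Gas5, Snhg5 and Snhg15 were lower than with PBS, and none of the 9 genes was called higher. The largest difference was in Snhg15, which stood at 0.552 times its PBS level, followed by Malat1 at 0.716, Snhg5 at 0.751 and Gas5 at 0.803 times. Snhg1 and Snhg12 had lower means that did not pass the test, and Snhg8 and Neat1 had means close to those of the controls. Of the 8 tested genes 4 were called lower, against 8.28% of all tested genes, and 0 were called higher, against 7.32% (either direction, 15.6%).

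The start regions are shown because the pyrimidine tract near the first base is a known feature of snoRNA hosts that the choice of genes did not use. Windows for 8 of the 9 genes were found in RefSeq (build GRCm38.p6; the counts were made on GRCm39, per the submitters' processing notes, so these positions are not those of the count table). Each line runs from 30 bases before to 50 bases after the annotated start, 5′ to 3′, and capitals mark the longest run of C and T within the 50 bases centred on the start.
Gas5 (chr1:161035136-161035215, + strand): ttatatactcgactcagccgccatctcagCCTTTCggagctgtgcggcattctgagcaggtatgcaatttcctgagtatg
Snhg8 (chr3:123508287-123508366, - strand): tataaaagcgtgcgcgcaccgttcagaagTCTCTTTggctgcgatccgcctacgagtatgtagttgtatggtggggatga
Snhg12 (chr4:132308648-132308727, + strand): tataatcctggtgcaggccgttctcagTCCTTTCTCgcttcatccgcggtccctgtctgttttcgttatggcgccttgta
Snhg5 (chr9:88522848-88522927, - strand): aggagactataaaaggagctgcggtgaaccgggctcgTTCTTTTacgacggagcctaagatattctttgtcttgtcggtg
Snhg1 (chr19:8723457-8723536, + strand): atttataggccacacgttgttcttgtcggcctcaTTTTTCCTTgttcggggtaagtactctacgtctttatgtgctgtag
Snhg15 (chr11:6528711-6528790, - strand): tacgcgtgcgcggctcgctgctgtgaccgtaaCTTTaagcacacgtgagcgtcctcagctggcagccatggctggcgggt
Malat1 (chr19:5802623-5802702, - strand): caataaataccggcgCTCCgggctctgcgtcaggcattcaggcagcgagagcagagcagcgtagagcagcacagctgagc

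In these windows the run was 6 bases in the Gas5 window shown, 7 in Snhg5 and Snhg8, and 9 in Snhg1 and Snhg12. In Gas5, Snhg8 and Snhg12 it spanned the annotated start, whereas in Snhg1 and Snhg5 it began 4 and 7 bases after it. It was 4 bases in Snhg15 and in Malat1, and 5 in Snhg3, which is not shown. Runs of at least 6 bases were held by 5 of the 9 windows of these genes and by 43.9% of 32841 RefSeq windows. Runs of at least 9 bases were held by 2 of the 9 and by 13.3% of all windows. Of the genes with a run of at least 6 bases, Gas5 and Snhg5 were called lower, and Snhg1, Snhg8 and Snhg12 were not called. Snhg15 and Malat1, with 4 bases, were called lower. A run found this way need not be a tract at the first transcribed base. Its relation to the changes was not tested. Gas5 also has a second annotated start, whose window is not shown and whose longest run was 3 bases.

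The windows were searched for 4 motifs on both strands. The TATA box letters TATAAA stood in 4 of the 9 windows of these genes (Snhg1, Snhg3, Snhg5 and Snhg8, of which Snhg5 was called) and in 13.6% of all windows. They began 23 bases before the start in Snhg5, 30 before it in Snhg8 and 22 after it in Snhg3. In Snhg1 the match lay 29 bases before the start, on the opposite strand. CACGTG stood in 1 (Snhg15) and in 7.15% of all windows, and CCGGAAG in 1 (Snhg3) and in 8.86%. The letters TGACGTCA, which read the same on both strands and are known as the cyclic AMP response element, stood in 2 of the 9 windows (Gas5 has 2 windows) and in 1.79% of all windows. In Gas5 the letters began 46 bases before the start and in Snhg15 88 bases before it, and they are in capitals in these stretches. A match of letters is a description of the sequence and not of binding.
Gas5 (chr1:161035100-161035147, + strand): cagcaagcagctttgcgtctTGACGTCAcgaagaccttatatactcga
Snhg15 (chr11:6528821-6528868, - strand): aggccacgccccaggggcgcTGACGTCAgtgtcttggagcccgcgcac

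The libraries held 15032257 to 15620607 counts with Akkermansia and 15125188 to 16677923 with PBS. The description of both libraries numbered 2 names CD5 and that of both numbered 3 names CD6, while the cell type entry of all 6 names CD4. Cd4 averaged 884 ± 29.6 CPM (read counts scaled to library depth) with Akkermansia and 688 ± 31.9 with PBS (SD, n = 3), so the labelled cell type's marker was present in every library. Cd4 itself was called higher (log2 fold change 0.36, adjusted p = 0.00428, edgeR). Together the 8 CD4+ T cell markers summed to 4251 to 4530 CPM with Akkermansia and 3685 to 3848 CPM with PBS, with 4 called higher. Several lists of markers of other cells differed between the groups. Those of monocytes and macrophages summed to 493 to 539 CPM with Akkermansia and 399 to 489 CPM with PBS, with 1 of 8 called higher. The summed level of 12 B cell markers was 463 to 627 CPM with Akkermansia and 215 to 243 with PBS, with 12 of 12 called higher, and that of the 2 CD8 T cell markers was 61.3 to 93.4 CPM with Akkermansia and 19.1 to 20.2 CPM with PBS, with both called higher. The 7 dendritic cell markers summed to 52.8 to 57.2 CPM with Akkermansia and 24.6 to 30.3 CPM with PBS, with 4 called higher. The 8 neutrophil markers summed to 79.0 to 178 CPM with Akkermansia and 13.2 to 54.9 CPM with PBS, with 1 of 6 tested called higher, and the 8 natural killer cell markers to 80.2 to 99.7 CPM with Akkermansia and 61.6 to 75.4 CPM with PBS, with 4 called higher. The 5 plasma cell markers summed to 202 to 236 CPM with Akkermansia and 164 to 225 CPM with PBS, with 2 called lower. The 4 platelet markers summed to 6.76 to 14.8 CPM with Akkermansia and 13.7 to 17.6 with PBS, with 1 of 3 tested called lower. The summed level of 7 erythroid markers was 215 to 377 CPM with Akkermansia and 426 to 980 with PBS, with 1 called lower. No marker on these lists was at 0 in all libraries. Mitochondrial transcripts took 1.38 to 1.53% of counts with Akkermansia and 1.32 to 1.69% with PBS. The part of these markers in the results on the 9 genes was not tested. In bulk RNA, fewer cells of a type and less RNA per cell cannot be told apart.

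Malat1 had 2173, 2594 and 2164 CPM with Akkermansia, against 3289, 3310.4 and 3080.1 CPM with PBS. The groups did not overlap, and Akkermansia 2 was nearest to the controls. The means were 2310.2 ± 246 CPM in Akkermansia libraries and 3226.5 ± 127 CPM in PBS libraries (SD, n = 3), a log2 fold change of -0.48 ± 0.08 (SE, adjusted p = 0.00258, edgeR quasi-likelihood test with Benjamini-Hochberg adjustment over all tested genes). In raw counts that is 34361, 38865 and 32666 reads with Akkermansia against 54450, 50423 and 50229 with PBS, so counting error is small beside the spread between libraries. The call was lost on log2(FPKM + 1) with no filter on low values (-0.48, adjusted p = 0.0573, limma). Malat1 took 0.220, 0.259 and 0.215% of all counts with Akkermansia and 0.326, 0.333 and 0.304% with PBS. It ranked 17th to 19th among all rows by count with Akkermansia and 7th or 8th with PBS.

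Neat1 had 243, 196 and 176 CPM with Akkermansia, against 200.2, 183 and 203 CPM with PBS. Both the highest and the lowest value were in Akkermansia libraries, and the groups overlapped. The log2 fold change was 0.07 ± 0.11 (SE, adjusted p = 0.703), with a 95% interval from -0.16 to 0.30, and its sign turned without Akkermansia 1 (-0.06). The short and long isoforms of Neat1 share 1 row of the table, so they were not told apart. The ratio of Malat1 to Neat1, both in FPKM (fragments scaled for gene length and library depth), was 26.6, 39.3 and 36.5 with Akkermansia and 48.9, 53.7 and 45.2 with PBS, and the ranges did not overlap. This ratio was not tested. The libraries were poly(A)-selected, per the labels' protocols, a step that the triple-helix ends of Malat1 and of the long Neat1 isoform do not serve. The short Neat1 isoform has a poly(A) tail, so Malat1 and Neat1 need not have been selected alike. How much of either was recovered was not tested. Another noncoding row, Gm23935, had 3569, 4008 and 3406 counts with Akkermansia, against 35010, 16830 and 7134 counts with PBS. It did not pass (adjusted p = 0.0958, edgeR), and its bearing on Malat1 and Neat1 was not tested.

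Gas5, a host named for its rise in growth-arrested cells, whose RNA can bind the glucocorticoid receptor in human cells, had 212, 226 and 223 CPM with Akkermansia, against 281, 274 and 269 CPM with PBS. The groups did not overlap, and the coefficient of variation between libraries was 3.54% with Akkermansia and 2.14% with PBS. Means of 220.3 ± 7.81 CPM in Akkermansia libraries and 275 ± 5.89 CPM in PBS libraries (SD, n = 3) gave a log2 fold change of -0.32 ± 0.06 (SE, adjusted p = 0.00606).

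**Figure D1:**
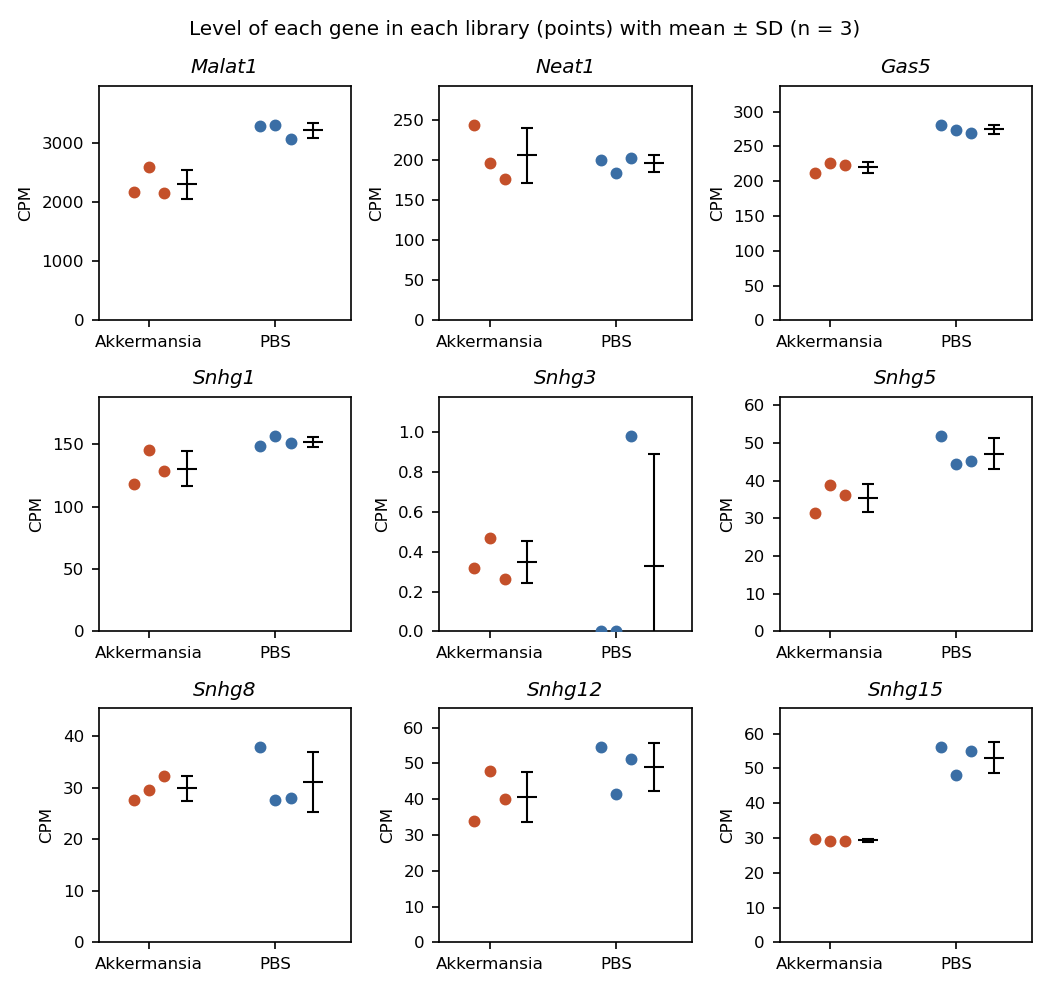
Each panel gives the level of 1 gene in CPM (counts scaled to library depth with TMM factors) in 3 Akkermansia and 3 PBS libraries (points), with the mean ± SD beside them; each vertical axis starts at 0, and the lower SD bar of Snhg3 runs below the axis. The Akkermansia points of Malat1 (up to 2594 CPM), Gas5 (226), Snhg5 (38.8) and Snhg15 (29.8) lie under all PBS points. So do those of Snhg1 (up to 145 CPM), which was not called. The Akkermansia points of Neat1, Snhg3, Snhg8 and Snhg12 overlap with the PBS points.

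Snhg15, the host of the H/ACA snoRNA Snora9, had 29.8, 29.0 and 29.1 CPM with Akkermansia, against 56.1, 48.0 and 55.1 CPM with PBS. The Akkermansia libraries were nearly identical, and each lay well under the lowest control, PBS 2. Its log2 fold change was -0.86 ± 0.09 (SE, adjusted p = 0.000103, edgeR), and 4.53% of all tested genes had a lower one. This call was kept in each of the 6 fits that left out 1 library, with log2 fold changes from -0.92 to -0.82.

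Snhg5, the host of the C/D box snoRNAs Snord50a and Snord50b, had 31.4, 38.8 and 36.2 CPM with Akkermansia, against 51.8, 44.5 and 45.3 CPM with PBS. The groups did not overlap, but the gap between Akkermansia 2 and PBS 2 was small. Means of 35.5 ± 3.73 CPM in Akkermansia libraries and 47.2 ± 4.03 CPM in PBS libraries (SD, n = 3) gave a log2 fold change of -0.41 ± 0.10 (SE, adjusted p = 0.0166). The call was lost without Akkermansia 1 (adjusted p = 0.0823), Akkermansia 3 (0.0575) or PBS 1 (0.0691), and on log2(FPKM + 1) with no filter on low values (0.116).

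Snhg1, which carries a cluster of C/D box snoRNAs, had 118, 145 and 128 CPM with Akkermansia, against 148, 156 and 151 CPM with PBS. The groups did not overlap, with Akkermansia 2 next to PBS 1, yet the gene did not pass after adjustment (log2 fold change -0.22 ± 0.08, SE, adjusted p = 0.0819). The groups of 5 of the 8 tested genes did not overlap with Akkermansia lower, and 0 with Akkermansia higher, against 17.8% and 17.1% of all tested genes (either direction, 34.9%).

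Snhg12, which carries Snora16a, Snora44, Snora61 and Snord99, had 33.8, 47.8 and 40.1 CPM with Akkermansia, against 54.5, 41.4 and 51.1 CPM with PBS. Akkermansia 2 was above PBS 2, and the log2 fold change of -0.28 ± 0.14 (SE) did not pass (adjusted p = 0.204). Snhg8, the host of Snora24, had 27.7, 29.6 and 32.4 CPM with Akkermansia, against 37.9, 27.7 and 28.02 CPM with PBS. PBS 1 was the highest of all, the other libraries overlapped, and the log2 fold change was -0.06 ± 0.13 (SE, adjusted p = 0.789), with a 95% interval from -0.34 to 0.21. Without PBS 1 it turned to 0.09.

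Snhg3, the host of Snora73a and Snora73b, was the gene that the filter on low counts removed. It had 5, 7 and 4 counts with Akkermansia, against 0, 0 and 16 counts with PBS. All the PBS counts came from 1 library, and a count of 0 there allows up to 3 counts, or 0.181 to 0.197 CPM. No difference was detectable at this depth and with this spread between the PBS libraries. Snhg3 overlaps Rcc1, a chromatin-bound exchange factor for Ran, on the same strand in GENCODE M21, and Rcc1 had 23.6 CPM with Akkermansia and 24.0 with PBS (log2 fold change -0.03). Reads shared by both genes could have been counted for either.

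**Figure D2:**
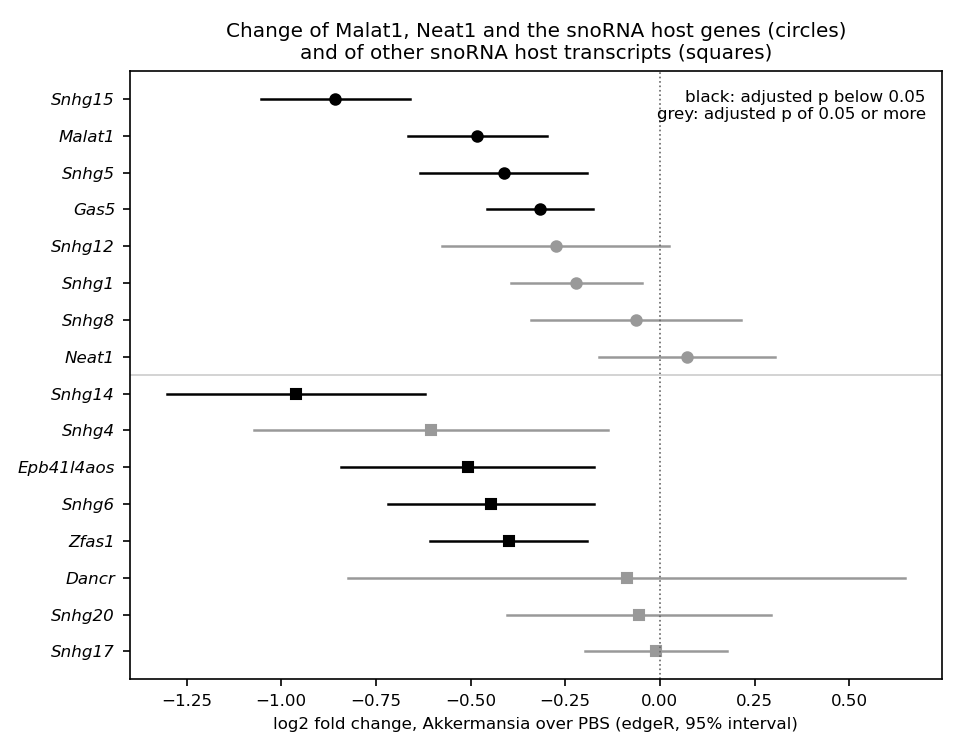
Points give the log2 fold change of Akkermansia over PBS from edgeR with its 95% interval, for Malat1, Neat1 and the 6 tested host genes (circles, upper block) and for 8 other snoRNA host transcripts (squares, lower block); black marks an adjusted p below 0.05. Of the 16 points 15 lie below 0, and the called ones run from -0.96 for Snhg14 to -0.32 for Gas5.

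Summed over the 7 host genes, levels were 452, 517 and 489 CPM with Akkermansia and 629.7, 592 and 600.4 CPM with PBS. Akkermansia 1 was the lowest Akkermansia library for Gas5, Snhg1, Snhg5, Snhg8 and Snhg12, and PBS 1 the highest PBS library for Gas5, Snhg5, Snhg8, Snhg12 and Snhg15. Neat1 went the other way in Akkermansia 1, its highest library, while Malat1 was highest within its group in Akkermansia 2, as were Gas5, Snhg1, Snhg5 and Snhg12. All 6 libraries carry the same batch label.

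**Figure D3:**
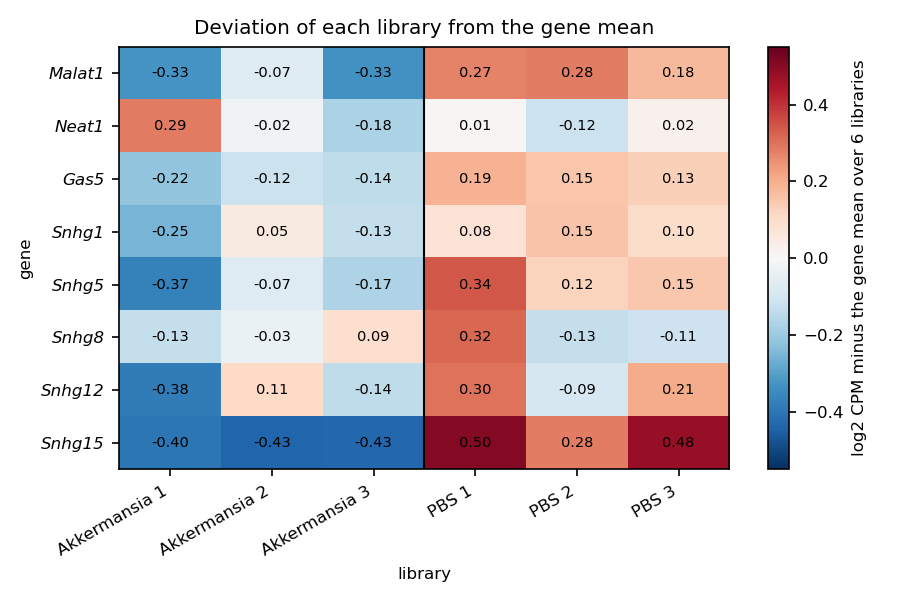
Each cell gives the log2 CPM of a gene in a library minus the gene's mean over the 6 libraries, with 3 Akkermansia libraries left of the line and 3 PBS libraries right of it; Snhg3 is left out for its low counts. Snhg15 lies between -0.43 and -0.40 in the Akkermansia libraries and between 0.28 and 0.50 in the PBS libraries, whereas Neat1 runs from 0.29 to -0.18 within the Akkermansia libraries.

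Per unit of length, Malat1 was the most abundant of the 9 RNAs, with 331 ± 34.6 FPKM with Akkermansia and 459 ± 19.99 with PBS (SD, n = 3). Gas5 followed with 58.7 ± 2.18 FPKM with Akkermansia and 72.6 ± 1.49 with PBS. Snhg1 came next with 44.0 ± 4.67 FPKM with Akkermansia and 50.9 ± 1.79 with PBS. With Akkermansia the next was Snhg8 (35.1 ± 2.92 FPKM), clear of Snhg15 (21.6 ± 0.274), while with PBS Snhg15 (38.8 ± 2.95 FPKM) and Snhg8 (36.4 ± 6.57) overlapped. With Akkermansia, Snhg5 (20.5 FPKM) overlapped both Snhg15 and Snhg12 (16.9 FPKM), while with PBS the ranges of these 3 genes were apart. Neat1 was lower than all of these with 9.89 ± 1.61 FPKM with Akkermansia and 9.35 ± 0.431 with PBS. Its value is spread over 20.8 kb, the length implied by the deposited counts and FPKM, which is also the joint length of its annotated exons, so it averages the short and long isoforms. The length implied for Malat1 was 6.99 kb.

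The snoRNAs themselves had no counts. GENCODE M21 places 29 snoRNA rows inside the 7 host genes, 10 of them in Gas5 and 8 in Snhg1, and 0 of the 29 had a count in any library. The levels above are those of the host genes' rows, and no level of a snoRNA is given.

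Genes beside the hosts did not move in 1 direction. Zbtb37, a zinc finger gene that overlaps Gas5 on the opposite strand, was higher, with 91.1 CPM with Akkermansia and 77.6 CPM with PBS (log2 fold change 0.23 ± 0.07, SE, adjusted p = 0.0367), opposite to Gas5. The call of Zbtb37 was lost without each library in turn other than PBS 2 (adjusted p up to 0.151). With all libraries it was kept in 7 of 11 alternatives and lost in DESeq2, among others (adjusted p = 0.0527). Slc3a2, the heavy chain of amino acid transporters, lies within 2000 bases of Snhg1 on the opposite strand and fell to 129 CPM with Akkermansia, against 219 with PBS (log2 fold change -0.77 ± 0.07, SE, adjusted p = 4.3e-05). Gm17300, which overlaps Snhg3 on the opposite strand, had 2.25 CPM with Akkermansia and 4.78 CPM with PBS (log2 fold change -1.09, adjusted p = 0.0192), and lost its call without Akkermansia 1 or Akkermansia 2 (adjusted p up to 0.0765). No source used here states whether the counting used strand, so reads of Gas5 and Zbtb37 in the overlap cannot be told apart. No count was recorded for the rows that overlap Malat1 or Neat1.

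Among other snoRNA host transcripts, 12 of 14 listed names were found and 8 were tested, of which 4 fell and 0 rose, with a median log2 fold change of -0.42 against -0.008 over all tested genes. Over all tested genes 8.28% fell and 7.32% rose. Snhg14, the host within the imprinted Prader-Willi and Angelman locus, had 6.07, 6.14 and 5.50 CPM with Akkermansia, against 11.5, 11.9 and 11.2 CPM with PBS (log2 fold change -0.96 ± 0.16, SE, adjusted p = 0.00169). The groups did not overlap, and the call held in each fit without 1 library. It was lost in limma on log2(FPKM + 1) (-0.23, adjusted p = 0.0572; 0.253 with no filter) and on log2(FPKM + 0.1) (-0.72, 0.0625). Zfas1 (-0.40, adjusted p = 0.0146), Snhg6 (-0.45, 0.0304) and Epb41l4aos (-0.51, 0.0411) also fell. Snhg17 had 45.4 CPM with Akkermansia and 45.7 with PBS. The count of falls was 1 without Akkermansia 1, Akkermansia 3 or PBS 1 and 2 without PBS 3. Zfas1 lost its call without Akkermansia 1, Akkermansia 3 or PBS 1 (adjusted p up to 0.0814), Snhg6 also without PBS 3 (up to 0.132), and Epb41l4aos without each library other than PBS 2 (up to 0.169).

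Among 174 long noncoding RNAs with a mean of at least 10 CPM, 40 (23%) were called lower and 23 (13.2%) higher, with a median log2 fold change of -0.05. Among all genes at that level 10.9% were called lower and 10.4% higher. All long noncoding RNAs together took 1.37, 1.37 and 1.28% of counts with Akkermansia and 1.69, 1.55 and 1.46% with PBS. That includes the 9 genes, which took 0.29, 0.33 and 0.28% with Akkermansia and 0.41, 0.41 and 0.38% with PBS. Of the 174 RNAs, which include the 8 tested genes, 6.9% had a lower log2 fold change than Snhg15, 19% than Malat1 and 27.6% than Gas5. No test set the 9 genes against this class.

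Of 19 genes for proteins that form or assemble snoRNA particles, 7 fell and 1 rose, against 8.28% and 7.32% of all tested genes. The median log2 fold change was -0.12. Nop58, a core protein of C/D box particles, had 78.0, 81.3 and 82.3 CPM with Akkermansia, against 134, 126 and 124 CPM with PBS (-0.67 ± 0.07, SE, adjusted p = 7.68e-05). Rpap3, a cofactor in the assembly of these particles, fell by 0.46 (adjusted p = 0.0118), and lost its call without Akkermansia 3 or PBS 1 (adjusted p up to 0.0523). Nop56, the partner of Nop58, fell by 0.37 (log2, adjusted p = 0.0176). Naf1, an assembly factor of H/ACA particles, fell by 0.82 (adjusted p = 0.00222) and Nufip1, which helps to assemble C/D box particles, by 0.51 (0.00363). Fbl, the methyltransferase of C/D box particles, had 124 CPM with Akkermansia and 132 with PBS and did not pass (adjusted p = 0.459), and Dkc1, the pseudouridine synthase of H/ACA particles, had 74.4 CPM with Akkermansia and 71.2 with PBS. The 1 rise was Ruvbl2, an ATPase of the assembly machinery (0.34, adjusted p = 0.0213), which was lost without Akkermansia 2, Akkermansia 3 or PBS 1, and 4 of the 19 genes fell without Akkermansia 1 or Akkermansia 3.

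Of 19 genes for proteins of the nuclear speckle, the body that holds Malat1, 10 fell and 0 rose, with a median of -0.25. The shares of all tested genes were 8.28% and 7.32%. Clk1, a kinase of splicing factors, had 556, 522 and 572 CPM with Akkermansia, against 972, 781 and 873 CPM with PBS (-0.67 ± 0.08, SE, adjusted p = 0.000314). Srsf3, an SR splicing factor, fell by 0.56 (adjusted p = 2e-04), Srsf10 by 0.45 (0.000877) and Clk4 by 0.44 (0.00319). The structural speckle proteins Son (1127 CPM with Akkermansia and 1231 with PBS) and Srrm2 (2053 CPM with Akkermansia and 1983 with PBS) did not pass.

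Of 16 genes for proteins of the paraspeckle, the body built on Neat1, 2 fell and 0 rose, against 8.28% and 7.32% of all tested genes. Their median was -0.04. Nono and Sfpq, which bind Neat1 and are needed for paraspeckles, did not pass: Nono had 338 CPM with Akkermansia and 336 with PBS, and Sfpq had 806 CPM with Akkermansia and 924 with PBS. Matr3, a nuclear matrix protein, fell by 0.28 (log2, adjusted p = 0.0211), and its call was lost without Akkermansia 1, Akkermansia 2 or PBS 1, with the adjusted p reaching 0.118. The difference between the speckle and paraspeckle lists was not tested.

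**Figure D4:**
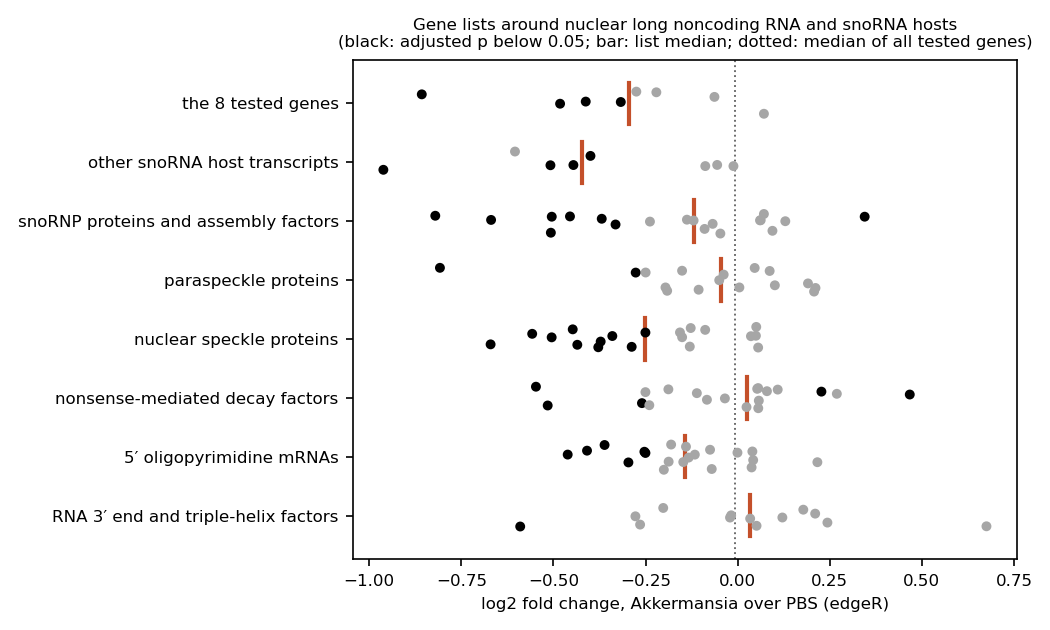
Each point is the log2 fold change of 1 tested gene, Akkermansia over PBS, in the list named at the left; black marks an adjusted p below 0.05, the bar is the list median and the dotted line the median of all 15138 tested genes (-0.008). The medians run from -0.42 in other snoRNA host transcripts to 0.03 in the factors of RNA 3′ ends and triple helices.

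Among 19 genes of nonsense-mediated decay, the pathway that degrades spliced host transcripts, 3 fell and 2 rose, against 8.28% and 7.32% of all tested genes, with a median of 0.02. Etf1, a translation release factor, fell by 0.55 (log2, adjusted p = 0.000308), Magoh, of the exon junction complex, by 0.52 (0.00386), and Eif4a3, of the same complex, by 0.26 (0.0205). Eif4a3 lost its call without any 1 Akkermansia library or PBS 1 (adjusted p up to 0.11). Smg1, the kinase of Upf1, rose by 0.47 to 1293 CPM with Akkermansia, against 935 with PBS (adjusted p = 0.00858), and Upf1, the helicase of the pathway, rose by 0.23 (0.0401). The count of rises was 1 without Akkermansia 1, Akkermansia 2, PBS 1 or PBS 2 and 0 without Akkermansia 3, where Smg1 had an adjusted p of 0.0518.

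Of 20 mRNAs known to begin with an oligopyrimidine tract, 6 fell and 0 rose, against 8.28% and 7.32% of all tested genes. Their median was -0.14. Hnrnpa1, a splicing regulator, fell to 569, 593 and 604 CPM with Akkermansia, against 863, 755 and 814 CPM with PBS (-0.46 ± 0.07, SE, adjusted p = 0.00128), and Npm1, a nucleolar chaperone, fell by 0.41 (0.00582). Eif3e, an initiation factor subunit, fell by 0.36 (0.00988; 0.0595 without Akkermansia 1), and Nap1l1, a histone chaperone, by 0.30 (0.0134; up to 0.0798 without Akkermansia 1 or Akkermansia 2). The most abundant ones did not pass: Eef1a1, an elongation factor, had 11158 CPM with Akkermansia and 12236 with PBS, and Eef2 had 5150.0 CPM with Akkermansia and 5002 with PBS. The falls numbered 2 without Akkermansia 1 and 3 without Akkermansia 2.

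Of 13 tested factors of RNase P, 3′ processing and the triple helix, 1 fell and 0 rose, a share close to the 8.28% of all tested genes that fell. Pop4, a subunit shared by RNase P and RNase MRP, had 23.0 CPM with Akkermansia and 34.7 with PBS (-0.59 ± 0.11, SE, adjusted p = 0.00295). Mettl16, which binds the Malat1 triple helix in human cells, had 45.3 CPM with Akkermansia and 41.6 with PBS and did not pass (adjusted p = 0.414).

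Outside these lists, the genes whose profiles over the 6 libraries lay nearest to Malat1 were Atp10a, a lipid flippase, at a root-mean-square distance of 0.03 log2 units, and Rab11fip2, Faim, Fundc2 and Ghitm, at 0.06 each, among 8505 genes with a mean of at least 10 CPM. Nearest to Gas5 were Mpdu1 at 0.02, and Dnttip2, Snx5, Mss51 and Alkbh1 at 0.03 each. Nearest to Neat1 were Fam222b and Eml2 at 0.04, Arhgap19 at 0.05, and Dgkh and Taco1 at 0.06. A distance over 6 libraries in 2 groups describes these profiles and nothing more.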

How the data were processed

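RNA-seq of 6 libraries, 3 per group, was analysed. A table that the authors deposited gives unnormalized read counts, and a second deposited table gives FPKM for the same genes. The submitters' processing notes name GRCm39, and poly(A) selection is given per the labels' protocols. No source used here names the aligner, counter, annotation or strandedness. The series' design text calls the samples biological replicates. Replicate pairs differed by 4.53 to 6.24 times the sampling variance with Akkermansia and by 14.7 to 19.9 times with PBS.

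Counts were filtered with filterByExpr (minimum count 10, minimum total 15), scaled by TMM and compared, Akkermansia over PBS, with the robust quasi-likelihood F test of edgeR 4.0.16 (R 4.3.3), two-sided. P-values were adjusted by Benjamini-Hochberg over 15138 genes, with a threshold of 0.05. CPM use the TMM factors. All values are levels of RNA, also where a protein is named. Fold changes carry the standard error (SE) of the fit, levels the SD of 3 libraries. A floor of 3 counts is 0.181 to 0.200 CPM and covers counting error only. Biotypes and overlaps came from GENCODE M21 (GRCm38), promoter sequences from RefSeq. The procedure was tested on simulated counts.

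The 9 genes, the lists and the tests were chosen with earlier results of these data known. Every one of the 9 genes was named, and up to 4 called genes per list with the smallest p, along with the 5 nearest profiles of Malat1, Neat1 and Gas5. Values given for other genes, such as Nop56, Fbl, Son, Nono, Upf1, Slc3a2 and Zbtb37, were chosen after they were seen. The values of 1 listed gene are not reported here. Alternatives were DESeq2 1.42.0, voom and, for log2 FPKM with 1 or 0.1 added, the trend method of limma 3.58.1, RLE factors, library totals, other filters, a replicate block, each library left out, and TMM on protein-coding genes, which was added after seeing the data.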

Additional observations from a re-analysis of the deposited data

How the results depend on the processing

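Among the 8 tested genes, 86 of 88 values under the 11 alternatives that kept all libraries had the same direction and side of the threshold. The exceptions were Malat1 (-0.48, adjusted p = 0.0573) and Snhg5 (-0.39, 0.116) on log2(FPKM + 1) with no filter, which left 2 of these genes lower. That setting also gave 256 higher and 308 lower genes in all, against 1108 and 1253, and 0 falls of other hosts, 3 falls and 0 rises of snoRNP proteins, 1 of paraspeckle proteins, 4 of speckle proteins, 1 of oligopyrimidine mRNAs, and 0 rises of decay factors. It tested 27971 genes. On log2(FPKM + 1) and log2(FPKM + 0.1) 1 other host and 1 paraspeckle protein fell and 1 decay factor rose. With no filter on low counts 2 paraspeckle proteins and 1 oligopyrimidine mRNA rose. For the other genes put through these alternatives, 270 values kept their direction and side of the threshold, and 27 lost the call. Zbtb37 and Epb41l4aos kept their calls in 7 of the 11 alternatives, and Matr3, Zfas1 and Snhg14 in 8. The cause was not tested.

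Leaving out each library in turn gave log2 fold changes from -0.57 to -0.43 for Malat1, -0.34 to -0.28 for Gas5, -0.92 to -0.82 for Snhg15, -0.48 to -0.33 for Snhg5, -0.30 to -0.15 for Snhg1, -0.41 to -0.15 for Snhg12, -0.064 to 0.17 for Neat1 and -0.14 to 0.094 for Snhg8. Between 3 and 4 of these genes were lower. In all, 519 to 1287 genes were higher and 623 to 1413 lower. Falls numbered 1 to 5 among other hosts, 4 to 7 among snoRNP, 1 to 3 among paraspeckle, 7 to 10 among speckle proteins, 2 to 4 among decay factors and 2 to 7 among oligopyrimidine mRNAs. Rises numbered 0 to 1 among snoRNP proteins, paraspeckle proteins, oligopyrimidine mRNAs and 3′ end factors, and 0 to 2 among decay factors.

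Same-numbered libraries of the 2 groups had correlated deviations of 0.12, 0.10 and 0.04 over 13810 genes, and each library correlated best with its own number. Not every pair was above 0.1, so the fit without pairing was kept, and whether the numbers pair the samples is not known. With the replicate block, 1205 genes were higher and 1333 lower, 4 of the 8 genes stayed lower, and Malat1 had a log2 fold change of -0.49 (adjusted p = 0.00112). With 3 libraries a group, precision is limited by the spread between libraries and, for Snhg3, also by its low counts.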
